A study of Mus musculus with 18 samples.

Results

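The comparison described here is busulfan (Bu) against its vehicle, dimethyl sulfoxide (DMSO), in GC1spg cells that carried an siRNA against TGR5 (siTGR5). GC1spg is an established line of mouse germ cells that serves to model spermatogonia. The libraries were chosen by their labels alone, 4 of siTGR5 cells with Bu and 5 of siTGR5 cells with DMSO, so that 9 of the 18 libraries of the series were used. The other 9 libraries hold the same contrast in cells with an siRNA against green fluorescent protein (siGFP), the control for the siRNA itself, with 4 libraries of Bu and 5 of DMSO. All libraries were made from poly(A) RNA and sequenced to obtain read counts per gene, and all genes were followed. Every group compared in siTGR5 cells, its DMSO control included, carried the siTGR5, so the comparison gives the response to Bu in such cells and not the effect of the siRNA. The labels gave no dose or time of exposure for these groups. The study's RNA-seq methods stated both for GC1spg cells but named no siRNA, so none is stated for cells with an siRNA. No source says that replicates were separate cultures. The p-values given here thus rest on the spread between libraries, which may be technical only.

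Bu is an alkylating drug that joins bases of the DNA to each other, and such crosslinks block replication forks until repair proteins of the Fanconi and homologous recombination pathways remove them. Cells with damaged DNA are held before mitosis by the checkpoint kinases, which keep CDK1, the kinase that drives entry into mitosis, in its inactive form, and the transcription factor p53 raises the genes that stop the cycle or start cell death. Spermatogonia, which divide throughout life and give rise to sperm, are lost from the testis after Bu. TGR5, the product of Gpbar1, is a receptor of the cell surface that binds bile acids and raises cyclic AMP.

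The siTGR5 libraries held 24745523 to 38257393 counts with Bu and 30300441 to 49638166 with DMSO, and no pair of libraries of a group differed by less than the sampling noise. Levels are given below as CPM, the counts of a gene relative to the total of its library after scaling by the trimmed mean of M-values (TMM), and are not corrected for gene length. Markers of rod photoreceptors, which belong to the retina, stood out in 3 of the 9 libraries. Their sum was 7.27 and 15.6 CPM in Bu replicates 1 and 3 and 47.3 CPM in DMSO replicate 4, against 1.11 to 1.91 CPM in the other 6 libraries. Counts that changed by more than 1.5 times without these 3 libraries are given both ways. Of the markers of spermatogonia, 15 of the 31 in the table reached 1 CPM, with a sum of 649 to 679 CPM with Bu and 651 to 692 CPM with DMSO, but the defining markers Zbtb16 (PLZF), Ret, Nanos2, Stra8 and Thy1 were below 0.05 CPM on average. Markers of Sertoli cells summed to 465 to 520 CPM with Bu and 524 to 555 CPM with DMSO, and 9 of 11 reached 1 CPM, Wt1 being the most abundant.

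The targeted gene, Gpbar1 (chr1:74278550-74279624, mm10), was near the limit of detection in every library. It had 0.39, 0.29, 0.41 and 0.32 CPM with Bu, against 0.49, 0.45, 0.36, 0.36 and 0.11 CPM with DMSO. The groups overlapped, the log2 fold change was -0.02 ± 0.33 (SE) with an adjusted p of 0.97, and an exact two-sided permutation test on log2(CPM + 0.5) gave p = 0.992. At this depth, whether the siRNA lowered its target cannot be read from the siTGR5 libraries, since all of them carried it.

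To describe the response as a whole, edgeR's quasi-likelihood test was run on 14372 genes. Called genes are those with an adjusted p (Benjamini-Hochberg) below 0.05. In siTGR5 cells 2226 genes (15.5%) were higher and 2183 genes (15.2%) were lower with Bu, and without the 3 libraries that held rod transcripts 1286 were higher and 1374 lower. The changes were mostly small, with a median of 0.208 on the log2 scale, without sign, over the called genes, and 17 of them were above 1 and 81 below -1. The genes with the strongest evidence differed in kind between the directions. Of the 50 genes with the smallest p among those that rose, 32 belonged to 4 lists of mitotic genes and 0 spanned more than 100 kb of genome. Of the 50 with the smallest p among those that fell, 0 were mitotic and 38 spanned more than 100 kb. Of the 14372 tested genes, 96 were on the mitotic lists. Spans of 100 to 200 kb were held by 1092 of the tested genes, of 200 to 400 kb by 437 and of over 400 kb by 168. In bulk RNA, fewer cells of a type and less RNA per cell cannot be told apart, and this holds for every change given below.

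Genes of mitosis were higher with Bu in siTGR5 cells almost without exception. Of 96 tested members of the 4 mitotic lists, 94 rose and 0 fell, against 15.5% of all tested genes that rose. For these lists, and for those of replication, crosslink repair, the proteasome and ion channels below, the count of 0 in the other direction by edgeR was also 0 at an unadjusted p under 0.05 and with DESeq2. The median log2 fold changes were 0.69 for spindle and cytokinesis genes (29 of 29 rose), 0.61 for kinetochore and spindle checkpoint genes (27 of 27), 0.59 for CDK1, its activators and the mitotic kinases (18 of 20), and 0.44 for the anaphase-promoting complex, cohesin and condensin (20 of 20), beside 0.004 for all genes tested. The lists were chosen with earlier results of these data known, so the counts describe the members and are not independent evidence.

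Cdk1 (chr10:69335146-69352938), the kinase of mitotic entry, had 209.5, 222, 238 and 231 CPM with Bu, against 133, 131, 133, 134 and 134 CPM with DMSO. The groups were far apart, since the lowest Bu library stood well above the highest DMSO library. The log2 fold change was 0.76 ± 0.03 (SE, adjusted p = 1.68e-10). Kif18b, a kinesin that shortens the microtubules of the spindle, had the smallest p of all genes that rose. It had 112.5, 120.2, 127 and 123 CPM with Bu, against 62.9, 64.8, 65.4, 66.3 and 66.8 CPM with DMSO, which is 0.89 ± 0.04 on the log2 scale (adjusted p = 1.31e-10). The Bu libraries were thus each above every DMSO library. Aurka, the aurora kinase of the centrosome, had 118, 130.1, 135 and 131 CPM with Bu, against 65.3, 67.9, 73.4, 69.0 and 70.5 CPM with DMSO. Prc1, a crosslinker of antiparallel microtubules between the separating chromosomes, had 197, 218, 226 and 219.8 CPM with Bu, against 112.5, 116, 116, 119 and 124 CPM with DMSO. Both genes were again separated in all 9 libraries, with log2 fold changes of 0.89 and 0.87.

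**Figure D1:**
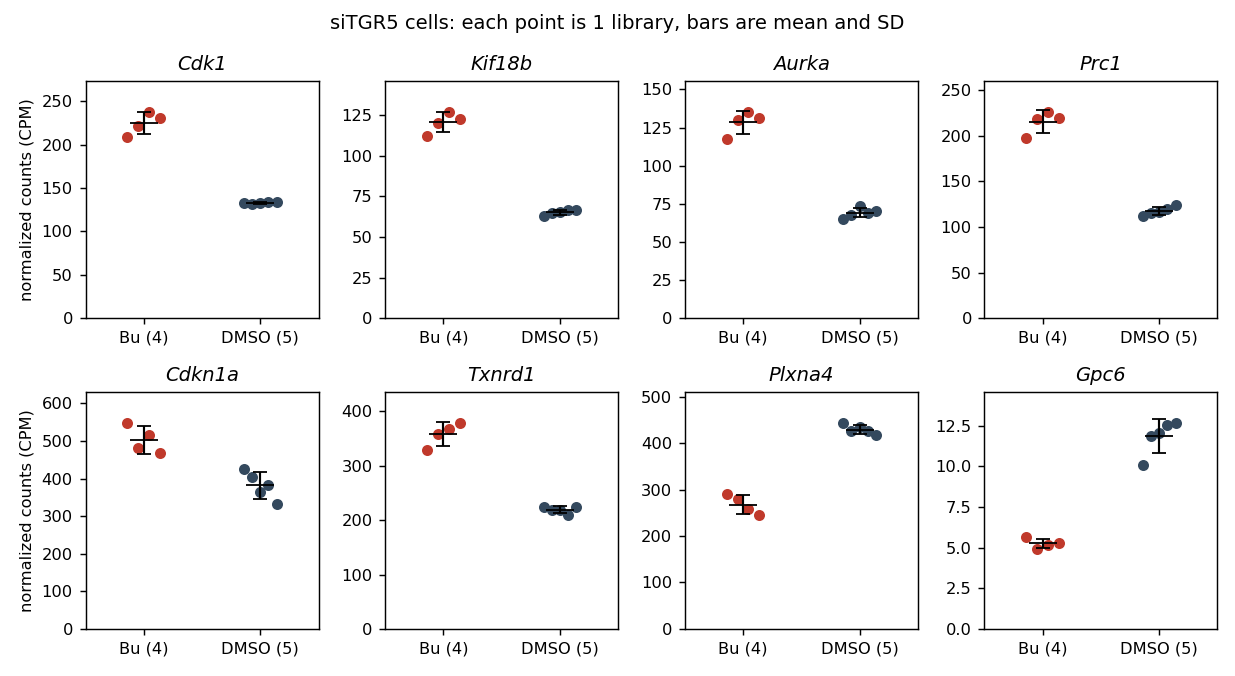
Normalized counts (CPM, linear axis from 0) of 8 genes in siTGR5 cells, Bu on the left (4 libraries) and DMSO on the right (5 libraries), each point a library and the bars the mean and SD. The 4 mitotic genes, Cdkn1a and Txnrd1 are higher in every Bu library than in any DMSO library, and Plxna4 and Gpc6 are lower in every Bu library.

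The other members of the mitotic lists differed in size of change, with log2 fold changes down to 0.03 in the CDK1 list, where 2 members were not called. Ccnb1, the cyclin that partners CDK1, averaged 46.3 CPM with Bu and 25.5 CPM with DMSO, a log2 fold change of 0.86. Nusap1, a spindle-associated protein, averaged 225 CPM with Bu and 123 CPM with DMSO (0.87). For Cdca5 (sororin), which protects the cohesion of sister chromatids, the log2 fold change was 0.82, for the motor Kif20a 0.75, for the spindle assembly factor Tpx2 0.70 and for the kinase Aurkb of the chromosomal passenger complex 0.69. Among the checkpoint and kinetochore genes, Bub1 rose by 0.78, Bub1b by 0.63, Ndc80 by 0.74 and Sgo2a, which guards centromeric cohesion, by 0.84. Genes that act at the end of mitosis rose too, with 0.62 for Cdc20, which activates the anaphase-promoting complex, 0.59 for separase (Espl1) and 0.62 for the condensin subunit Ncaph. The mean log2 level of the 96 genes relative to the DMSO mean was 0.483, 0.553, 0.624 and 0.599 in the Bu libraries, so it was lowest in Bu replicate 1. In the DMSO libraries it lay between -0.046 and 0.038. Without the 3 libraries that held rod transcripts 90 of the members were still called higher.

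The promoters of the genes with the smallest p among those that rose are shown because many mitotic promoters are known to carry CCAAT boxes, bound by NF-Y, and a cell cycle homology region with the core TTTGAA, bound by MuvB complexes. The 120 bases before the RefSeq start (GRCm38.p6, first start listed) are printed 5′ to 3′ on the strand of the gene for 6 of the 8 genes. Capitals mark CCAAT or its reverse complement ATTGG, and TTTGAA or its reverse complement TTCAAA. The windows are chr11:102925125-102925244 (minus strand) for Kif18b, chr2:119618178-119618297 (plus) for Nusap1, chr10:69352913-69353032 (minus) for Cdk1, chr7:80294331-80294450 (plus) for Prc1, chr2:172370571-172370690 (minus) for Aurka and chr19:6084977-6085096 (plus) for Cdca5.
Kif18b: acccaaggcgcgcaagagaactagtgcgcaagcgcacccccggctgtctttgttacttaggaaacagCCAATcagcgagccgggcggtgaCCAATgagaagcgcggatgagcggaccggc
Nusap1: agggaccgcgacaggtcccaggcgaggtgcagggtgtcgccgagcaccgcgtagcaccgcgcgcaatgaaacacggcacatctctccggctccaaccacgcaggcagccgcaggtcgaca
Cdk1: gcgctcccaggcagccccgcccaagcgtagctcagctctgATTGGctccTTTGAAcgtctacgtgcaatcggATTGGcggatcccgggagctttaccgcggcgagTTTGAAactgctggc
Prc1: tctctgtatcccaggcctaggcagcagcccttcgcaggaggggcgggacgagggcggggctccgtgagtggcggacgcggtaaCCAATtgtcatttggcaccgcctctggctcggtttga
Aurka: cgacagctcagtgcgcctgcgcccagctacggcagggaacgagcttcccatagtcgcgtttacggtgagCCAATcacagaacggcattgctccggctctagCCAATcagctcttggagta
Cdca5: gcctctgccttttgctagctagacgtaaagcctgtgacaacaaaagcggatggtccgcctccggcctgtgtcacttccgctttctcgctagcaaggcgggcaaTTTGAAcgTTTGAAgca
Kif20a and Tpx2 are named only. Kif18b, Cdk1 and Aurka thus each held 2 CCAAT boxes in these bases, Cdk1 and Cdca5 each held 2 copies of TTTGAA, and Nusap1 held neither motif.

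The same letters were counted on both strands in the 250 bases before the start of every matched gene, 10295 of the 14372 tested genes. CCAAT was found in 46 of 77 matched mitotic genes (59.7%), against 37.0% of all matched tested genes and 34.5% of all 27018 promoters in the table. TTTGAA was found in 23 of the 77 (29.9%), against 10.3% of the tested genes and 16.3% of all promoters. Both motifs occurred together in 18 of the 77 (23.4%), against 4.16% of the tested genes and 5.73% of all promoters. Among all 1736 matched genes called higher the shares were nearer to those of the tested genes. They were 43.2% for CCAAT, 14.9% for TTTGAA and 7.09% for both. Among the 1590 matched genes called lower they were 34.5%, 6.54% and 1.76%. TTCCCGC, the core of many E2F sites, stood in 5.19% of the mitotic promoters and in 10 of the 32 matched genes of DNA replication (31.2%), against 7.04% of the tested genes and 3.83% of all promoters. None of these motifs contains another, and a match gives letters in a window, not a bound site.

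Genes that copy DNA rose with Bu as well, but by less than the mitotic genes. Of 39 members of the replication and nucleotide supply list, 31 rose (79.5%, beside 15.5% of all genes) and 0 fell (beside 15.2%). Their median log2 fold change was 0.22. Mcm10, needed to start the replicative helicase, was the furthest up with 0.73 ± 0.04, and averaged 54.8 CPM with Bu and 32.9 CPM with DMSO. Cdc45, a subunit of that helicase, rose by 0.53, Rrm2, a subunit of ribonucleotide reductase, by 0.52, and Dtl, a factor of a ubiquitin ligase that acts on chromatin during replication, by 0.45. Of the 29 G1 cyclins, E2F factors and pocket proteins, 11 rose (37.9%) and 2 fell (6.9%), beside 15.5% and 15.2% of all genes. Their median was 0.04. The members that rose included the E2F repressors E2f7 and E2f8, both by 0.32, and Lin9 (0.36) and Lin54 (0.26), 2 subunits of the MuvB core.

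Genes that repair crosslinks were called higher in 24 of 33 cases (72.7%, beside 15.5% of all genes) and lower in 0 (beside 15.2%). Their median log2 fold change was 0.31. Fancd2, the Fanconi protein that is ubiquitinated at crosslinks, had 54.1, 61.8, 59.6 and 62.9 CPM with Bu, against 35.7, 36.1, 39.7, 35.6 and 37.4 CPM with DMSO. No Bu library overlapped the DMSO range, and the log2 fold change was 0.69 ± 0.05 (adjusted p = 9.16e-09). Brca1, which promotes recombination, rose by 0.62, and Eme1, a subunit of a nuclease that cuts joined DNA strands, by 0.74.

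The targets of p53 rose in 23 of 29 cases (79.3%, beside 15.5% of all genes) and fell in 2 (6.9%, beside 15.2%). Their median log2 fold change was 0.29. Cdkn1a (chr17:29090979-29100722), which encodes the cyclin-dependent kinase inhibitor p21, had 549, 482, 515 and 467 CPM with Bu, against 426, 405, 364, 384 and 333 CPM with DMSO. The groups did not overlap, but the highest DMSO library and the lowest Bu library lay close together. The log2 fold change was 0.40 ± 0.06 (adjusted p = 6.66e-05). Mdm2, the ubiquitin ligase that degrades p53, averaged 303 ± 11.2 CPM with Bu and 203 ± 9.25 CPM with DMSO (SD, n = 4 and n = 5), a log2 fold change of 0.58. The stress-induced Sesn2 rose by 0.43 and the kinase Plk2 by 0.37.

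Of 28 caspases and members of the BCL2 family 6 rose (21.4%, beside 15.5% of all genes) and 5 fell (17.9%, beside 15.2%), shares near those of all genes, and the median log2 fold change was 0.03. Pmaip1 (NOXA), a p53 target that promotes cell death, rose by 0.40, while Apaf1, on which caspases are activated, rose by 0.22. Bcl2, which protects from cell death, fell by 0.25, and Bmf, which promotes it, fell by 0.32. Bax (log2 fold change 0.12, adjusted p = 0.0953), Bid (0.03, adjusted p = 0.659) and Bbc3, which encodes PUMA (0.08, adjusted p = 0.361), did not pass the test.

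Enzymes that answer oxidative and electrophilic stress through the transcription factor NRF2 were called higher in 17 of 24 cases (70.8%) and lower in 0. Of all genes 15.5% rose and 15.2% fell, and the median log2 fold change of these enzymes was 0.19. DESeq2 called 2 of them lower, and 2 were lower at an unadjusted p under 0.05 in edgeR. Txnrd1, thioredoxin reductase, had 328.5, 359, 368 and 379 CPM with Bu, against 225, 218, 219, 209 and 224 CPM with DMSO. Every Bu library was above every DMSO library, and the log2 fold change was 0.71 ± 0.04 (adjusted p = 5.08e-10). Nqo1, a quinone reductase, had 26.4, 32.1, 31.1 and 32.5 CPM with Bu, against 17.9, 18.3, 17.6, 17.0 and 18.1 CPM with DMSO, and rose by 0.78. Gclc, the catalytic subunit of the enzyme that limits glutathione synthesis, rose by 0.47, and Srxn1, which restores oxidized peroxiredoxins, by 0.44. Bu itself is cleared by conjugation to glutathione. Of 16 glutathione S-transferases 5 rose (31.2%, beside 15.5% of all genes) and 2 fell (12.5%, beside 15.2%), with a median log2 fold change of 0.04. Among them were Gsta3 (log2 fold change 0.52), Gstm6 (0.78) and Gstm1 (0.27) upward and the microsomal Mgst3 (-0.25) downward. Copies of the Gstm and Gsta genes resemble each other, and reads that fit more than 1 copy were not counted, so that their values are uncertain.

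Tubulins rose in siTGR5 cells. Of 24 members of the list of tubulins and microtubule-associated proteins 14 were called higher (58.3%) and 1 lower (4.17%), with a median of 0.30. The shares of all genes were 15.5% and 15.2%. Tubb5 was the most abundant of those named, with means of 2119 CPM with Bu and 1476 CPM with DMSO, a log2 fold change of 0.52. Tuba1c rose by 0.77, Tubb4b by 0.76 and Tubb2b by 0.60. The tubulin genes are near copies of each other, so the split of reads between them is uncertain too. Subunits of the proteasome were called higher in 24 of 37 cases (64.9%, beside 15.5% of all genes) and lower in 0. The changes were small, with a median of 0.15 and, for example, 0.28 for Psmc6. Of 71 cytosolic ribosomal proteins 19 rose (26.8%) and 1 fell (1.41%), with a median of 0.09. Of 86 subunits of the respiratory chain encoded in the nucleus 12 rose (14.0%) and 3 fell (3.49%), with a median of 0.03. Of all genes 15.5% rose and 15.2% fell, so the shares called lower in both lists were below that of all genes.

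**Figure D2:**
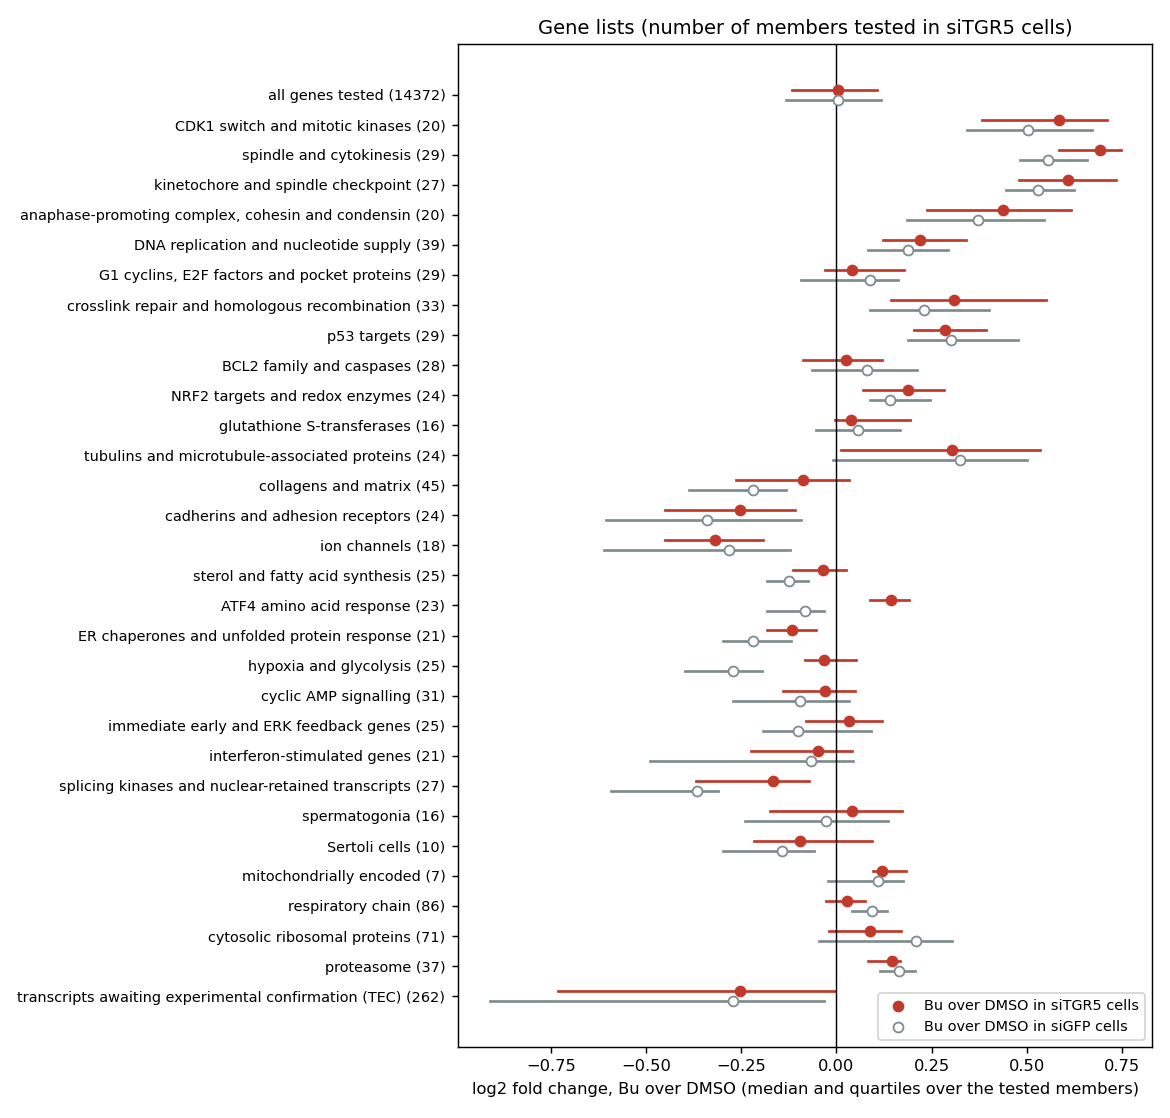
Median (point) and quartiles (line) of the log2 fold change, Bu over DMSO, over the tested members of each gene list, red for siTGR5 cells and open grey for siGFP cells. The 4 mitotic lists have medians of 0.44 to 0.69 in siTGR5 cells, the adhesion and ion channel lists lie below 0, and the lists of the ATF4 response and of hypoxia and glycolysis lie near or above 0 in siTGR5 cells and below 0 in siGFP cells.

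The share of genes called lower was highest among those that are long in the genome, although most of the genes that fell were not long. The distance from start to end of a gene, its span, sets how far RNA polymerase must travel, and it is far longer than the mature RNA where introns are long. Of the 168 tested genes that span more than 400 kb, 75.0% fell in siTGR5 cells, 4 rose and 38 were not called, with a median log2 fold change of -0.39. The share called lower was 59.5% of 437 genes of 200 to 400 kb, 31.3% of 1092 genes of 100 to 200 kb and 14.9% of 3789 genes of 30 to 100 kb. Below 30 kb it was between 6.36% and 11.3%, against 15.2% of all genes. The shares called higher were 6.3% up to 3 kb, 16.5% at 3 to 10 kb, 20.7% at 10 to 30 kb and 17.2% at 30 to 100 kb, against 2.38% above 400 kb. Of the 2183 genes that fell, 728 (33.3%) spanned more than 100 kb, as did 14 of the 81 that fell by more than 1 on the log2 scale. Of all 14372 tested genes, 1092 spanned 100 to 200 kb, 437 spanned 200 to 400 kb and 168 spanned more than 400 kb. The share called lower also differed with the deposited length of the mature transcript, at 6.4% up to 500 bases and 25.9% above 5000 bases, where the median log2 fold change was -0.03. In genes of 10 to 100 CPM, where depth is more even, 87.0% of 77 genes above 400 kb fell, with a median of -0.36.

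**Figure D3:**
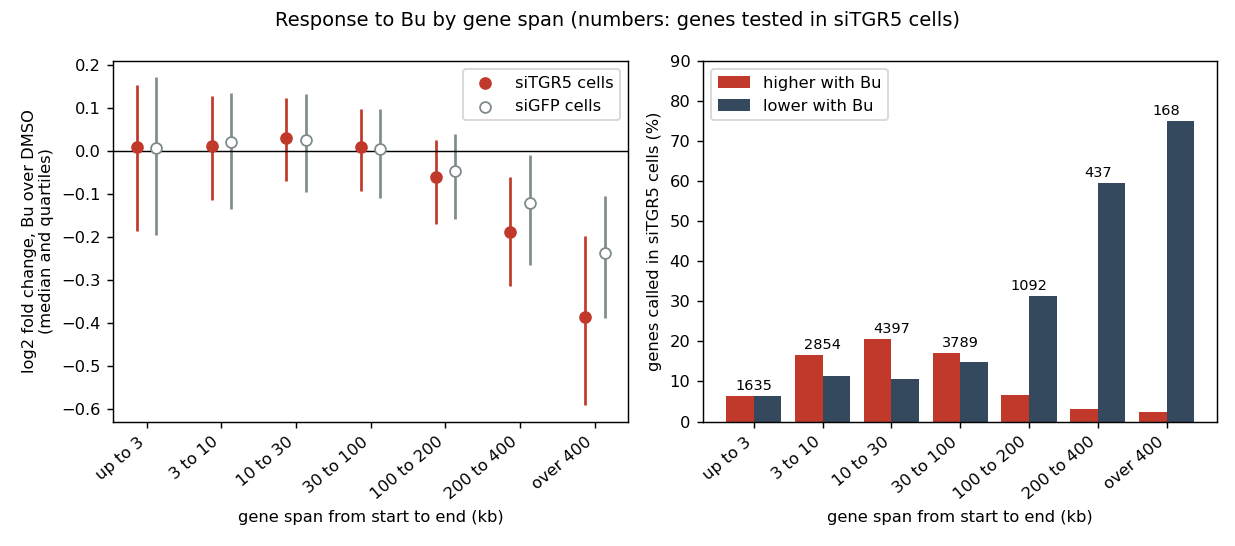
Response to Bu by gene span in 7 classes from up to 3 kb to over 400 kb. On the left are the median and quartiles of the log2 fold change, Bu over DMSO, in siTGR5 cells (red) and siGFP cells (open grey), and on the right the percent of genes called higher (red) and lower (dark) in siTGR5 cells, with the number of genes above each pair of bars. The median goes from near 0 in short genes to -0.39 above 400 kb in siTGR5 cells, where 75.0% of genes are called lower.

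Plxna4 (chr6:32144268-32588192), a semaphorin co-receptor that spans 444 kb, had 289.6, 279.5, 258 and 244 CPM with Bu, against 444, 425, 434, 425.5 and 417 CPM with DMSO. The highest Bu library was well under the lowest DMSO library, and the log2 fold change was -0.68 ± 0.04 (adjusted p = 2.02e-09). Gpc6 (chr14:116925315-117976544), a glypican of the cell surface that spans 1051 kb, had 5.66, 4.94, 5.13 and 5.30 CPM with Bu, against 10.1, 11.9, 12.0, 12.5 and 12.7 CPM with DMSO. The level with Bu was below that with DMSO in all libraries, at 0.446 of it by the fitted fold change, which was -1.16 ± 0.08 on the log2 scale (adjusted p = 9.38e-09).

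Further genes at the top of the list by p were as long. Slit3, a guidance ligand (587 kb), fell by 0.68, and the receptor phosphatase Ptprg (688.5 kb) fell by 0.69. Atrnl1 (522 kb) fell by 0.46 and the kinase Prkca (410.5 kb) by 0.43. Adgrl3, an adhesion receptor that spans 805 kb, averaged 3.50 ± 0.43 CPM with Bu and 8.64 ± 0.57 CPM with DMSO (SD, n = 4 and n = 5), a log2 fold change of -1.30. Among the called genes of at least 1 CPM whose libraries did not overlap, the largest falls were those of Gm26532 (-1.93), Naaladl2 (-1.84, span 1346 kb), Gm21781 (-1.64), the cyclic GMP kinase Prkg1 (-1.51, span 1198 kb) and 3110039I08Rik (-1.49, span 328 kb). Gm26532 and Gm21781 are short non-coding genes with spans of 0.69 and 4.84 kb. The largest rises by the same rule were those of mt-Nd6 (1.78), Ces2f (1.33), Atf7ip2 (1.27), Mt2 (1.23) and 1700007K13Rik (1.09). Mt2, a metallothionein that binds metals, had 24.4, 42.5, 36.4 and 43.4 CPM with Bu, against 10.4, 14.5, 19.5, 12.1 and 20.3 CPM with DMSO, which leaves a wide spread in both groups.

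Length did not fix the direction of every long gene. The 4 genes above 400 kb that rose, named here after their values were seen, were Nrg1 (log2 fold change 0.75, span 1070 kb), which encodes the growth factor neuregulin, the cystine transporter Slc7a11 (0.61, span 551 kb), the formin Diaph3 (0.33, span 486 kb) and the phosphodiesterase Pde4b (0.21, span 520 kb). Nrg1 had 13.9, 14.7, 16.6 and 15.5 CPM with Bu, against 9.16, 10.0, 8.58, 9.33 and 7.83 CPM with DMSO, and its groups did not overlap. The call of Pde4b was lost without Bu replicate 3 (log2 fold change 0.17), without Bu replicate 4 (0.16), without DMSO replicate 2 (0.18) and without the 3 libraries that held rod transcripts (0.20). Dmd, with a span of 2257 kb, had a log2 fold change of -0.11 that did not pass the test (adjusted p = 0.167). The mean log2 level of the 168 genes over 400 kb relative to the DMSO mean was -0.307, -0.329, -0.4 and -0.396 in the Bu libraries, against -0.023 to 0.014 in the DMSO libraries. Without the 3 libraries that held rod transcripts 105 of these genes were still called lower. Their promoters held CCAAT in 33.6% and TTTGAA in 10.2% of 128 matched genes, close to the 37.0% and 10.3% of all tested genes.

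Genes of the cell surface and the matrix were among those that fell. Of 24 cadherins and adhesion receptors 16 fell (66.7%, beside 15.2% of all genes) and 1 rose (4.17%, beside 15.5%). Their median log2 fold change was -0.25. Tenm4, a teneurin of 740 kb, averaged 9.57 CPM with Bu and 19.6 CPM with DMSO (-1.03). Itgb3, the integrin subunit beta 3, fell by 0.55 and the adhesion receptor Adgrb2 by 0.51, with spans of 62.5 and 37.8 kb. Of 18 ion channel genes 14 fell (77.8%, beside 15.2%) and 0 rose (beside 15.5%), with a median of -0.32. Among those that fell were the calcium channel subunits Cacna1g (-0.62) and Cacna2d1 (-0.40), the potassium channel Kcnq3 (-0.61) and the cation channel Trpm4 (-0.27). Of 45 collagens and matrix genes 21 fell (46.7%, beside 15.2%) and 5 rose (11.1%, beside 15.5%), with a median of -0.09. The matrix protease Adamts2 fell by 0.63, Loxl1, which crosslinks elastin, by 0.53, the collagen chain gene Col5a1 by 0.40 and the protease inhibitor Timp2, at means of 2659 CPM with Bu and 3164 CPM with DMSO, by 0.25.

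The list of splicing kinases and nuclear-retained transcripts had a wider spread between libraries. Of its 27 tested genes 14 fell (51.9%, beside 15.2% of all genes), 1 rose (3.7%, beside 15.5%) and 12 were not called. The median log2 fold change was -0.17. Neat1, the RNA that builds paraspeckles, had 192, 145, 139.7 and 181 CPM with Bu, against 265, 240.5, 226, 217.5 and 363 CPM with DMSO. Its groups did not overlap, and the log2 fold change was -0.67 ± 0.12 (adjusted p = 5.26e-04), with DMSO replicate 5 far above the other DMSO libraries. Arglu1, a splicing cofactor gene with a retained intron, fell by 0.54 and Nktr by 0.38. The mean log2 level of the list relative to the DMSO mean was -0.144, -0.272, -0.305 and -0.121 in the Bu libraries and -0.043, -0.106, -0.047, -0.09 and 0.287 in the DMSO libraries, so that DMSO replicate 5 stood apart. Without Bu replicate 3, 9 members were called lower, and 9 without the 3 libraries that held rod transcripts. Of 262 loci in the class TEC, which Ensembl reserves for transcripts not yet backed by experiment, 62 fell and 3 rose. The share that fell was 23.7%, beside 15.2% of all genes, and the share that rose was below the 15.5% of all genes. The median log2 fold change was -0.25. The median level of these loci was 0.582 CPM, against 25.5 CPM for all genes tested, and depth limits genes at that level. Such transcripts can come from introns or unspliced RNA, and the mean level of the nuclear list was lower in every Bu library than in any DMSO library. Their part in the fall of the long genes was not tested.

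**Figure D4:**
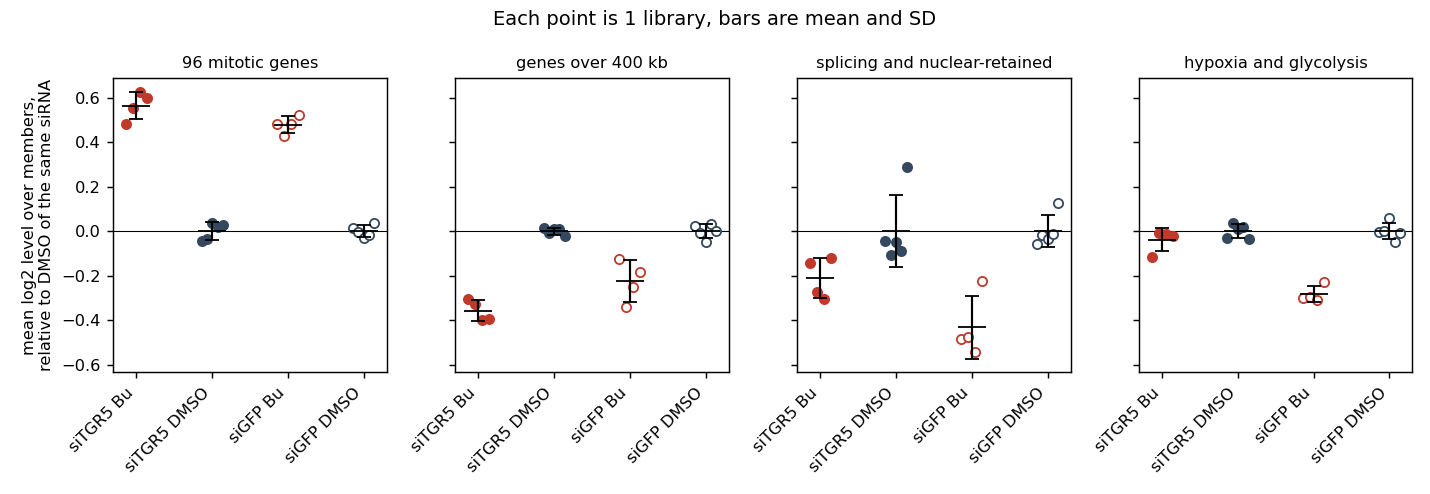
Mean log2 level of 4 gene groups in each library relative to the mean of the DMSO libraries with the same siRNA, for siTGR5 Bu, siTGR5 DMSO, siGFP Bu and siGFP DMSO from left to right, with bars for the mean and SD. The 96 mitotic genes lie between 0.483 and 0.624 in the siTGR5 Bu libraries, the genes over 400 kb between -0.4 and -0.307, and for the nuclear-retained list siTGR5 DMSO replicate 5 stands at 0.287.

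Lists of metabolism and stress had small median changes in siTGR5 cells, though in some of them the share of members called was above that of all genes (15.5% higher and 15.2% lower). Of 25 genes of sterol and fatty acid synthesis 8 (32.0%) fell and 2 rose (median -0.04), with the desaturase gene Scd1 falling by 0.35 and the sterol sensor partner Insig1 by 0.33. Of 21 chaperones and genes of the unfolded protein response in the endoplasmic reticulum 13 (61.9%) fell and 1 rose (median -0.12), Ern1, which encodes the sensor IRE1, by 0.26. Of 23 genes of the amino acid response that ATF4 controls 10 (43.5%) rose and 1 fell (median 0.14), with 0.61 for Slc7a11 and 0.28 for the serine synthesis enzyme Psat1. Of 25 hypoxia and glycolysis genes 4 (16%) fell and 1 rose (median -0.03), a share near that of all genes. The aldolase Aldoc fell by 0.32, the hexokinase Hk2 by 0.34 and the pyruvate dehydrogenase kinase Pdk1 by 0.25, and the mutase Pgam1 rose by 0.28.

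Signalling lists had medians near 0 as well. Of 31 genes of cyclic AMP signalling, the pathway through which TGR5 acts, 9 fell (29.0%, beside 15.2% of all genes) and 3 rose (9.68%, beside 15.5%), with a median of -0.03, and Crtc1, a coactivator of the cyclic AMP response, fell by 0.33 and the adenylyl cyclase Adcy9 by 0.23. The call of Adcy9 was lost without the 3 libraries that held rod transcripts, at -0.25. Of 25 immediate early and ERK feedback genes 5 (20.0%) rose and 2 (8.0%) fell (median 0.03), among them the phosphatases Dusp1 (0.42) and Dusp4 (0.37), Atf3 (0.30) and Myc (0.28). Of 21 interferon-stimulated genes 1 rose and 1 fell, namely Ifi35 (0.15) and the chemokine Cxcl10 (-0.40). The share was 4.76% in each direction, below the 15.5% and 15.2% of all genes. The call of Ifi35 was lost without Bu replicate 1, 2 or 4 or DMSO replicate 2, 4 or 5, at 0.11 to 0.14, and also without the libraries that held rod transcripts, with the replicate block and with all 18 libraries in 1 fit, and its libraries overlapped.

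Genes of the germ cell lineage were followed because GC1spg stands for spermatogonia. Gfra1 (chr19:58235604-58455909), the co-receptor for GDNF on undifferentiated spermatogonia, had 22.0, 20.4, 19.6 and 17.9 CPM with Bu, against 28.8, 28.6, 24.6, 27.7 and 23.1 CPM with DMSO. The highest Bu library was just under the lowest DMSO library. It fell by 0.41 ± 0.07 (adjusted p = 4.03e-04), and the gene spans 220 kb. Fgfr2, a receptor of fibroblast growth factors, fell by 0.31 and the retinoic acid receptor Rara by 0.26, while the ubiquitin hydrolase Uchl1, a marker of spermatogonia, rose by 0.34. In all, 4 of 16 tested spermatogonial genes fell (25.0%, beside 15.2% of all genes) and 2 rose (12.5%, beside 15.5%), with a median of 0.04.

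Other genes of this kind did not pass the test. Id4, a marker of stem spermatogonia, stood at -0.17 on the log2 scale (adjusted p = 0.143), the mitochondrial creatine kinase gene Ckmt1 at -0.06 (adjusted p = 0.735), the metalloproteinase gene Mmp24 at -0.18 (adjusted p = 0.146) and the manganese superoxide dismutase gene Sod2 at -0.11 (adjusted p = 0.0521). Ckmt1 had 4.07, 4.33, 5.50 and 4.47 CPM with Bu, against 4.73, 4.13, 4.59, 5.49 and 4.78 CPM with DMSO, so the groups overlapped. Thy1, Zbtb16 and Piwil4 were too low to be tested, at mean levels of 0.0356, 0.00652 and 0.066 CPM with Bu and 0.0239, 0.00662 and 0.0774 CPM with DMSO, and Neurog3 was not analysed here. Markers of meiotic cells (2 tested), Leydig cells (2) and peritubular and immune cells (3) gave 0 called genes by edgeR and by DESeq2, and at an unadjusted p under 0.05 in edgeR 1 meiotic gene was lower and 1 peritubular or immune gene was higher. Of 10 tested Sertoli genes 3 fell (30.0%, beside 15.2% of all genes) and 1 rose (10.0%, beside 15.5%), with a median of -0.095. The log2 fold changes were -0.39 for Inha, -0.24 for Inhbb and -0.12 for Wt1, and 0.17 for Gdnf. The call of Wt1 was lost without Bu replicate 3 (-0.12) or 4 (-0.09), that of Inha without Bu replicate 2, 3 or 4 or DMSO replicate 4 or 5 (-0.40 to -0.34), and that of Gdnf without Bu replicate 1, 2 or 3 or DMSO replicate 1, 4 or 5 (0.14 to 0.17). All 3 calls were also lost without the 3 libraries that held rod transcripts, at -0.12 for Wt1, -0.39 for Inha and 0.10 for Gdnf, those of Inha and Gdnf with the replicate block, and that of Gdnf with DESeq2, without a filter and with all 18 libraries in 1 fit.

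To ask where the response of siTGR5 cells differed from that of cells with the control siRNA, the same contrast was fitted in the siGFP libraries and the difference of the effects, siTGR5 minus siGFP, was tested over all 18 libraries. In siGFP cells 2043 of 14304 genes (14.3%) rose and 1980 (13.8%) fell. Of the genes that rose in siTGR5 cells 56.9% also rose in siGFP cells, and these were 62.0% of those that rose in siGFP cells. Of the genes that fell in siTGR5 cells 55.1% also fell in siGFP cells, which was 60.7% of those that fell there. The difference itself was called for far fewer genes, with 107 of 14783 (0.724%) higher and 96 (0.649%) lower. These counts depended on single libraries, and were 45 and 42 without siTGR5 Bu replicate 2, 60 and 41 without siTGR5 Bu replicate 3, 59 and 38 without siTGR5 Bu replicate 4, 60 and 58 without siTGR5 DMSO replicate 4, and 67 and 58 without siGFP DMSO replicate 1. Without siTGR5 DMSO replicate 1 they were 70 and 49. Without siTGR5 DMSO replicate 3 and without siGFP DMSO replicate 3 the higher genes were 62 and 71. In siGFP cells rod markers also stood out, with sums of 43.0 and 27.2 CPM in Bu replicates 2 and 4. The sums were 70.0 and 116 CPM in siGFP DMSO replicates 1 and 5. For the difference, the libraries left out for rod transcripts are these together with the 3 siTGR5 libraries. Without them 29 genes were higher and 18 lower in the difference, with fewer libraries in each of the groups.

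For the mitotic genes the difference was called for 0 of 96 members by edgeR. At an unadjusted p under 0.05, 24 members were higher and 0 lower in the difference, and DESeq2 called 4 higher and 0 lower. The share of all genes at this unadjusted p was not counted. The difference was above 0 for 19 of 20 genes of the CDK1 list and 29 of 29 of spindle and cytokinesis. It was above 0 for 21 of 27 kinetochore genes and 16 of 20 of the anaphase-promoting complex list, beside 7596 of 14783 tested genes. Cdk1 had log2 fold changes of 0.76 in siTGR5 cells and 0.72 in siGFP cells, a difference of 0.04 (adjusted p = 0.821). Kif18b had 0.89 in siTGR5 cells and 0.66 in siGFP cells, a difference of 0.23 (adjusted p = 0.0894). The p53 target Cdkn1a rose by 0.40 in siTGR5 cells and by 0.53 in siGFP cells, and Fancd2 rose by 0.69 in siTGR5 cells and by 0.46 in siGFP cells. Neither difference was called. Gfra1 fell by 0.41 in siTGR5 cells and by 0.47 in siGFP cells.

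Among the classes of span, the genes above 400 kb had the largest share called lower in the difference. Of 174 genes above 400 kb, 23 (13.2%) were lower and 3 higher in the difference, against 0.649% and 0.724% of all genes, with a median of -0.14. The lower count was 12 without siTGR5 Bu replicate 3, 13 without siTGR5 DMSO replicate 1 or without siGFP Bu replicate 1, 14 without siTGR5 Bu replicate 2 or 4, and 6 without the libraries that held rod transcripts. In siGFP cells 46.8% of the genes above 400 kb fell, with a median of -0.24. Gpc6 fell by 1.16 in siTGR5 cells and by 0.52 in siGFP cells, a difference of -0.64 (adjusted p = 0.0046). This call was lost without the libraries that held rod transcripts, at -0.61. For Plxna4 the effects were -0.68 and -0.67, and the difference was not called.

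Genes of hypoxia and glycolysis, which fell in siGFP cells, were mostly not called in siTGR5 cells. In siTGR5 cells 4 of 25 fell (16%, beside 15.2% of all genes) with a median of -0.03, in siGFP cells 22 fell (88.0%, beside 13.8%) with a median of -0.27, and the difference was called higher for 10 of 25, beside 0.724% of all genes. The mean log2 level of the list relative to the DMSO mean was -0.114, -0.008, -0.012 and -0.02 in the siTGR5 Bu libraries, against -0.299, -0.298, -0.309 and -0.229 in the siGFP Bu libraries. Pfkl, the liver phosphofructokinase of glycolysis, had 228, 269, 273 and 256 CPM with Bu in siTGR5 cells, against 241, 265, 271, 263 and 253 CPM with DMSO, and the groups overlapped. In siGFP cells it had 219.8, 211, 222 and 228 CPM with Bu, against 290.6, 296, 309, 287 and 287 CPM with DMSO, all lower. The difference was 0.40 ± 0.06 (adjusted p = 0.00227). Vegfa, the angiogenic factor that hypoxia raises, had -0.08 in siTGR5 cells and -0.51 in siGFP cells, a difference of 0.43 (adjusted p = 0.0102). The count of 10 was 5 without siTGR5 Bu replicate 2, 3 or 4, and 6 without siTGR5 DMSO replicate 1, siGFP Bu replicate 1 or siGFP DMSO replicate 1, 2 or 3. ACGTG is the core of the hypoxia response element and of E-boxes. It stood in the 250 bases before the start of 13 of 24 matched genes of the list (54.2%), against 21.8% of the tested genes and 16.6% of all promoters. Among the 10 members called higher in the difference it stood in 6 (60.0%), near the share of the whole list. These 10 are part of the same list, and a link of the motif with the difference was not tested.

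The collagens and matrix genes fell in 21 of 45 cases in siTGR5 cells (46.7%, beside 15.2% of all genes), with a median of -0.09. In siGFP cells 31 fell (68.9%, beside 13.8%), with a median of -0.22. The difference was higher for 6 (13.3%, beside 0.724% of all genes) and lower for 1 (2.22%, beside 0.649%). Nid2, a basement membrane protein, had -0.01 in siTGR5 cells and -0.54 in siGFP cells, a difference of 0.53 (adjusted p = 0.00161). For the NRF2 list the difference was higher for 3 genes (12.5% of the list, beside 0.724% of all genes). These were Slc7a11 (0.76), Txnrd1 (0.20) and Hmox1 (0.24). All 3 calls were lost without siTGR5 Bu replicate 2, 3 or 4, among other libraries, at differences of 0.67 to 0.81 for Slc7a11, 0.18 to 0.20 for Txnrd1 and 0.22 to 0.26 for Hmox1. Adgrg1, an adhesion receptor, fell by 0.14 in siTGR5 cells and by 0.66 in siGFP cells, a difference of 0.53 (adjusted p = 4.57e-05). Its own call in siTGR5 cells was lost without Bu replicate 4, at -0.11, and without the libraries that held rod transcripts, at -0.14.

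The largest difference among the genes named was that of mt-Nd6, the only mRNA for a protein on the light strand of the mitochondrial genome. It had 123.5, 129.5, 113 and 110.5 CPM with Bu in siTGR5 cells, against 43.0, 35.0, 26.1, 36.3 and 34.0 CPM with DMSO, and rose by 1.78 ± 0.09 (adjusted p = 4.01e-10). In siGFP cells it had 86.3, 72.7, 62.5 and 93.1 CPM with Bu, against 128, 86.9, 151, 159 and 161 CPM with DMSO, and fell by 0.80. The siTGR5 DMSO libraries were thus the lowest of the 4 groups, and the difference was 2.58 (adjusted p = 1.03e-07). The other mitochondrial genes moved little. mt-Nd5, whose end lies opposite mt-Nd6 on the other strand, had 1567, 1593, 1653 and 1709 CPM with Bu in siTGR5 cells, against 1430, 1462, 1467, 1486 and 1656 CPM with DMSO, a log2 fold change of 0.12, and mt-Nd2 rose by 0.20 and mt-Nd1 by 0.16. The call of mt-Nd1 was lost without the libraries that held rod transcripts, at 0.14. The libraries kept the strand of the RNA, but the strand setting of the counting was not stated, so reads of mt-Nd6 and of its antisense partner may not be told apart.

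**Figure D5:**
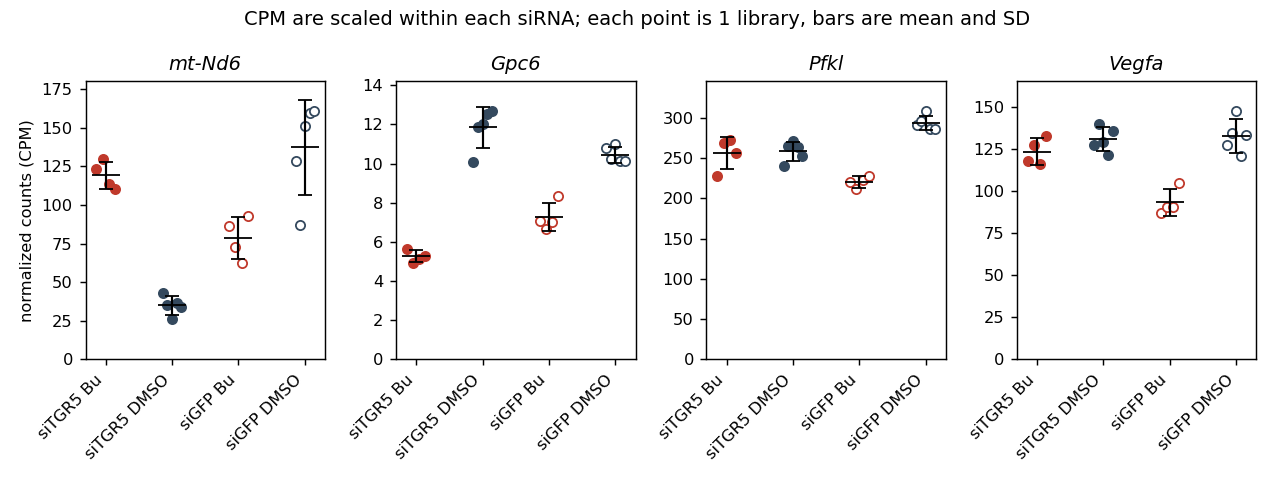
Normalized counts (CPM, linear axis from 0, scaled within each siRNA) of 4 genes in siTGR5 Bu, siTGR5 DMSO, siGFP Bu and siGFP DMSO libraries from left to right, with bars for the mean and SD. mt-Nd6 is higher with Bu in siTGR5 cells and lower on average in siGFP cells, Gpc6 is lower with Bu under both siRNAs with the larger fall in siTGR5 cells, and Pfkl and Vegfa overlap between Bu and DMSO in siTGR5 cells and are lower with Bu in siGFP cells.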

How the data were processed

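RNA of 18 libraries was extracted and made into stranded libraries of poly(A) RNA by the authors, who sequenced single ends. Per the study's methods the reads were mapped to mm10 with Hisat2 and Bowtie2, uniquely aligned reads were kept, and HTSeq assigned them to Ensembl genes. Tools listed in the submitters' processing notes are bcl2fastq 2.17.1.14, TopHat2 (where the methods have Hisat2), Bowtie2 2.1.0 and DESeq2 1.0.19. The table deposited by the authors holds raw read counts of 31643 genes, of which 1363 had no count, and these counts were used with the coordinates deposited beside them. Its 36 columns of normalized values and 9 columns of the authors' own comparisons (fold changes with raw and adjusted p-values) were not used.

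The analysis used edgeR 4.0.16 and limma 3.58.1 in R 4.3.3, with TMM scaling, filterByExpr (minimum count 10, minimum total 15) and the quasi-likelihood F-test on group means with Benjamini-Hochberg adjustment, within each siRNA and, for the difference of the Bu effects, over all 18 libraries. The threshold was an adjusted p of 0.05. CPM were scaled within each siRNA, so levels are set side by side across siRNAs as a description only. Gpbar1 was 1 of 12 genes also tested by exact two-sided permutation on log2(CPM + 0.5). Its permutation p of 0.992 was the same after Benjamini-Hochberg adjustment over the 12. Plots were made in matplotlib 3.10.9 under Python 3.11.15, and the scripts were tested on simulated data. Promoters are from RefSeq, GRCm38.p6, with 1 promoter, the first listed, per gene.

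The members and gene lists were chosen with earlier results of these data known. Genes named are Gpbar1, for each direction the 8 with the smallest p at a mean of 1 CPM or more and the 5 furthest changed of those called at that level without overlap of the groups, the 4 tested members of smallest p from every list, genes whose mRNA the study discusses in these cells, and the 6 with the smallest p in each direction in the difference. Nrg1, Slc7a11, Diaph3, Pde4b, Dmd, Vegfa, Hmox1 and the markers named as cell type checks were chosen after their values were seen. Some genes that meet these rules are not reported here. As alternatives, the fits were repeated with DESeq2 1.42.0, with RLE scaling, with all genes that had a count, with genes of at least 1 CPM on average, with the replicate number as a block, with all 18 libraries together, without each library in turn and, chosen after seeing the data, leaving out libraries with rod transcripts above 5 CPM.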

Additional observations from a re-analysis of the deposited data

Results flagged for a closer look

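For 31 of the genes examined the effect of Bu differed between siTGR5 and siGFP cells by the test of the difference itself, and the values below are log2 fold changes in siTGR5 cells minus those in siGFP cells. The difference was above 0 for mt-Nd6 (2.58), Fgf21 (1.25), Slc7a11 (0.76), 5033406O09Rik (0.61), Nid2 (0.53), Adgrg1 (0.53), Pgam1 (0.50), Pde4b (0.49), Vegfa (0.43), Aox1 (0.43), Bnip3 (0.41), Pfkl (0.40), P4ha2 (0.37), Mthfd2 (0.37), Slc16a3 (0.36), Slc2a1 (0.33), P4ha1 (0.30), Pkm (0.26), Aars (0.25), Hmox1 (0.24) and Txnrd1 (0.20). It was below 0 for Naaladl2 (-0.996), Prkg1 (-0.94), Adgrl3 (-0.71), Gpc6 (-0.64), Cdk14 (-0.44), Ptprg (-0.42), Ghr (-0.39), Fam172a (-0.39), Fstl1 (-0.29) and Atrnl1 (-0.23).

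Of these 31 calls 18 were lost in at least 1 alternative and 13 without the libraries that held rod transcripts. Leaving out single libraries ended the calls of Aars, Atrnl1, Bnip3, Fgf21, Hmox1, Mthfd2, Naaladl2, P4ha1, Pkm, Ptprg, Slc2a1, Slc7a11 and Txnrd1. Those of mt-Nd6, Adgrg1, Nid2, Pfkl, P4ha2, Slc16a3, Vegfa, 5033406O09Rik, Cdk14, Adgrl3, Prkg1, Fstl1 and Ghr held in every alternative run. Fgf21, P4ha1, P4ha2, Bnip3, Mthfd2, Slc16a3, Slc2a1, Pkm and Aars were chosen after their values were seen.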

How the results depend on the processing

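In siTGR5 cells the genes called higher and lower, 2226 and 2183, were 2052 and 2143 with DESeq2, 2151 and 2274 with RLE, 2070 and 2291 without a filter, 2081 and 2254 at a mean of at least 1 CPM and 1914 and 2056 with all 18 libraries in 1 fit. They were 1286 and 1374 without the 3 libraries with rod transcripts, which leaves 2 libraries with Bu and 4 with DMSO, and 1627 to 2302 and 1751 to 2223 on leaving out each library. The planned limit of 1 CPM for rod transcripts could not be run because every library is above it. In siGFP cells the ranges on leaving out each library were 1488 to 2040 and 1654 to 2069. For the difference, 107 and 96 became 175 and 213 with DESeq2 and 247 and 164 without a filter. They were 29 and 18 without the libraries of both siRNAs with rod transcripts, and 45 to 146 and 38 to 138 on leaving out each library. Nuclear-retained members called lower, 14, were 9 without the libraries with rod transcripts and 9 to 15 on leaving out each library. Hypoxia members called higher in the difference, 10, were 17 with DESeq2 and 5 to 13 on leaving out each library. Genes over 400 kb called lower in the difference, 23, were 6 without the libraries with rod transcripts and 12 to 23 on leaving out each library. On leaving out each library the mitotic members called were 91 to 94, repair 20 to 24, p53 targets 19 to 23, NRF2 15 to 17, adhesion 15 to 16, matrix 17 to 22, ion channels 13 to 15, and genes over 400 kb in siTGR5 cells at least 118. Of 148 named genes called in siTGR5 cells 13 lost the call in at least 1 setting. The rod gene Sag, not called with all libraries, ranged from -0.99 to 1.64, and at 1.64, without DMSO replicate 4, which held most rod transcripts, it was called higher. The cause of the other changes was not tested. Same-numbered Bu and DMSO libraries of siTGR5 cells did not deviate together (r = -0.051, 0.018, -0.072 and -0.11), so the numbers were not taken to pair libraries. With the replicate block the counts were 2045 and 2021 in siTGR5 cells and 138 and 127 in the difference. Depth limits genes near 1 CPM and below, such as Gpbar1.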
